A study of Mus musculus with 8 samples.

Results

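The 8 genes described here, Fhit, Wwox, Lrp1b, Dlg2, Csmd1, Nrxn3, Rad51l1 and Ptprg, are large genes, many of which lie at chromosomal fragile sites. Their probes were chosen by the gene name printed on the array, without use of any measured value. The genes themselves were chosen with earlier results of these data known. The exact name found 7 genes, and Dlg2 was found under its older name Dlgh2 on chromosome 7. Together they held 1230 of 232626 probes. Copy number was read by array comparative genomic hybridisation, in which test and reference DNA in different dyes compete for the same probes, on 8 arrays of liver DNA from male C57BL/6 mice. Hepatocellular carcinomas of mice with a FEAT (Mettl13) transgene filled 6 arrays, from animals of 16, 21, 20, 18.5, 22 and 12 months (tumours 1 to 6). The other two arrays held a non-tumour liver of a FEAT mouse of 13 months (called here the FEAT control liver) and the liver of a wild-type mouse of 6 months. Reference DNA came from wild-type liver at 6 months on every array. The labels read here do not give the promoter of the transgene, and each non-tumour group is 1 animal.

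Fragile sites are regions that break readily when DNA replication is slowed, and in mammals many of them lie in very long genes that replicate late. In cancers, such genes often lose one or several exons within the gene while the chromosome around them is kept. Fhit, a diadenosine triphosphate hydrolase, and Wwox, an oxidoreductase with WW domains, lie at the best known sites and are often called tumour suppressors, in liver cancer as in other cancers. The question put to these arrays was whether any of the genes was lost, whole or in part, beyond the level of the chromosome on either side.

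Each value is a log2 ratio (test over reference) minus the median of the array's autosomal probes, so that 0 is the usual copy number and loss of 1 of 2 copies in every cell would give -1. In DNA from liver tissue, a loss carried by few cells and a shallower ratio cannot be told apart. The spread between neighbouring probes, given as a robust standard deviation (SD), ran from 0.22 on the wild-type array and in tumour 5 to 0.49 in tumour 4, so losses in tumour 4 were the hardest to see. The genes spanned 0.51 Mb (Rad51l1, 70 probes) to 2.05 Mb (Lrp1b, 247 probes), with a median probe spacing of 6.41 to 7.85 kb. Fhit was covered unevenly: stretches of 360, 70, 75 and 183 kb near the start of its annotated span held no probe in the table used here, and Dlg2 had 1 such stretch of 52 kb. Losses confined to those stretches were not measured. The mean GC content of the genes' probes was 35.9 to 37.0%, against 36.6% for autosomal probes. Their median wild-type signals were 783 to 1132 in the test channel against an autosomal median of 920.

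The genes first counted among tumour suppressors followed their chromosomes. The median of the 116 Fhit probes (chr14:7380567-8973392) was -0.21, 0.01, -0.02, 0.07, 0.05 and 0.01 in tumours 1 to 6, 0.03 in the FEAT control and 0.03 in the wild-type liver. Tumour 1 alone was low, and its flanks, the 190 probes before and 200 after the gene, had a median of -0.23. Ptprg, a receptor tyrosine phosphatase and neighbour of Fhit (chr14:9373549-10045893, 100 probes), had medians of -0.24, 0.03, 0.03, -0.01, 0.08 and -0.02 in tumours 1 to 6, 0.03 in the FEAT control and 0.02 in the wild-type liver. Again tumour 1 was low together with its flanks, at -0.21; since each gene lies in the flanks of the other, a loss of both would be partly hidden. The median of chromosome 14 in tumour 1 was -0.26.

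Wwox (chr8:113057324-113965065, 119 probes) had medians of -0.04, -0.01, 0.03, -0.08, -0.03 and -0.07 in tumours 1 to 6, -0.02 in the FEAT control and 0.04 in the wild-type liver. No tumour stood apart from the other arrays for this gene.

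Rad51l1, a protein of repair by homologous recombination (chr12:77263553-77777356), had medians of -0.27, 0.05, -0.03, -0.11, -0.17 and 0.01 in tumours 1 to 6, 0.01 in the FEAT control and 0.00 in the wild-type liver. Tumours 1, 5 and 4 were low, and so were their flanks, at -0.25, -0.15 and -0.11. Nrxn3, a presynaptic adhesion protein on the same chromosome (chr12:86426796-87812751, 201 probes), had medians of -0.20, 0.02, -0.06, -0.06, -0.09 and -0.03, with 0.00 in the FEAT control and 0.02 in the wild-type liver. Its flanks in tumour 1 were at -0.24.

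Dlg2, a scaffold protein of the synapse (chr7:87098984-88449353, 160 probes), had medians of 0.06, 0.03, -0.02, -0.01, -0.26 and -0.08 in tumours 1 to 6, 0.00 in the FEAT control and -0.02 in the wild-type liver. Tumour 5 was low, as were the flanks at -0.25 and chromosome 7 as a whole at -0.28. Lrp1b, an endocytic receptor of the LDL receptor family (chr2:40607556-42660933), had medians of 0.09, 0.10, 0.02, 0.09, 0.12 and 0.08 in tumours 1 to 6, 0.05 in the FEAT control and 0.08 in the wild-type liver, so that tumours and non-tumour livers overlapped. Csmd1, a membrane protein that restrains complement (chr8:15875020-17505403, 217 probes), had medians between -0.08 and 0.03 in the tumours, -0.02 in the FEAT control and 0.01 in the wild-type liver.

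**Figure D1:**
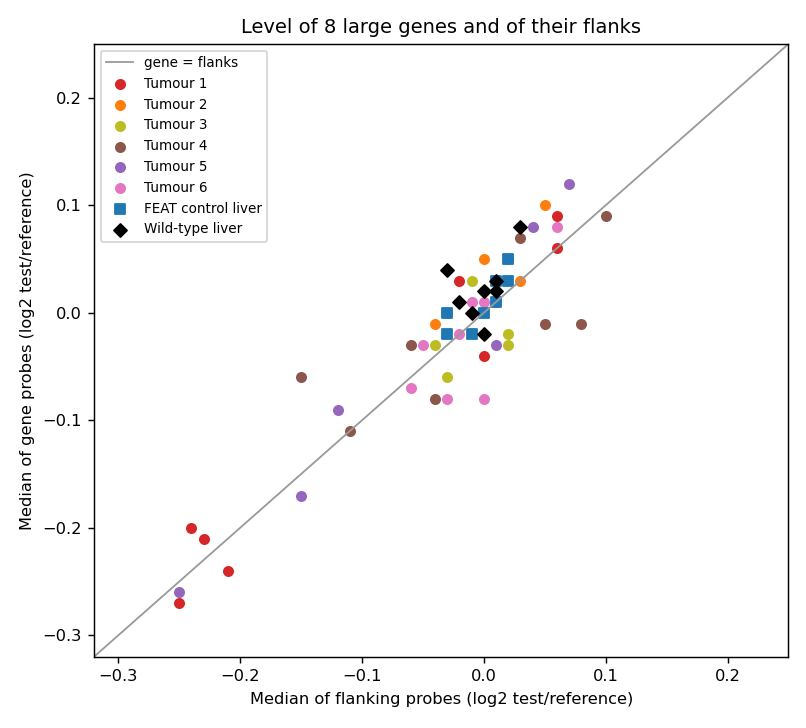
Median log2 ratio of each gene's probes (vertical) against the median of its flanking probes (horizontal), both in log2 units of test over reference, with 1 point for each of 8 genes on each of 8 arrays and colours for the arrays. Points lie along the line of equality, and the lowest genes, Rad51l1 at -0.27 in tumour 1 and Dlg2 at -0.26 in tumour 5, have flanks equally low.

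Subtracting the flanks left little in any gene taken as a whole. Over the 64 pairs of gene and array, the gene minus its flanks ran from -0.08 to 0.09, with a median of 0.012 and standard errors (SE, from the spread of the probes within an array) of 0.02 to 0.07. The median over all genes with at least 10 probes was 0.002. None of the pairs reached the limit of 0.2 in either direction. Among the 353 genes with at least 50 probes, as the 8 genes have, 0.248% of pairs lay at or below -0.2 and 0.142% at or above 0.2, so that none in 64 is near the background; with genes of at least 10 probes the shares were 2.40% and 3.42%.

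The lowest differences were those of Dlg2, at -0.08 ± 0.06 (SE) in tumour 4 and -0.08 ± 0.03 in tumour 6, against 0.00 ± 0.04 in the FEAT control and -0.02 ± 0.02 in the wild-type liver. The highest was Nrxn3 in tumour 4, at 0.09 ± 0.05. For scale, the SD of this difference among genes with at least 50 probes was 0.09 in tumour 4 and 0.06 in tumour 6. Dlg2 in tumour 6 was the only pair of the 64 whose 95% interval lay wholly below 0 (1.56%), against 4.64% of pairs of large genes. The pairs with an interval wholly above 0 were Lrp1b in tumour 2, tumour 5 and the wild-type liver, each at 0.05, and Wwox in the wild-type liver at 0.06, which is 6.25% of 64 against 4.07%.

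The depth of the arrays sets how small a loss could have been missed. At the lower end of the 95% interval, a one-copy loss of a whole gene beyond its flanks would have been present in at most 25.3% of cells in any tumour (Ptprg in tumour 4) and in at most 19.5% (Dlg2 in tumour 6) once tumour 4 was set aside. These shares assume that the ratios were not compressed, and the interval covers probe spread only.

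**Figure D2:**
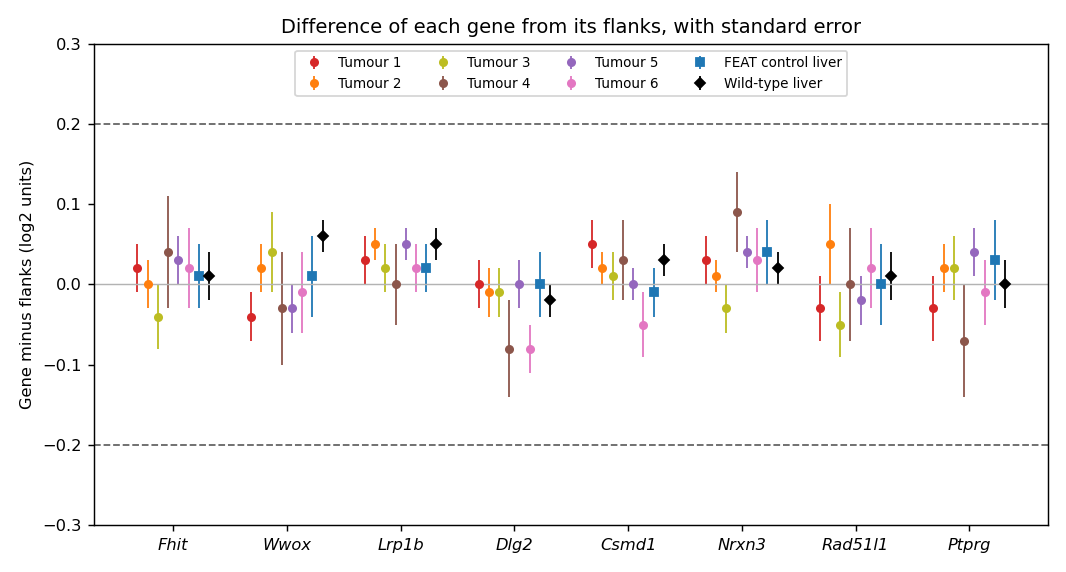
Gene minus flanks in log2 units (vertical) for 8 genes (horizontal) on each of 8 arrays; points are differences of medians, bars are 1 SE from the probe spread, and dashed lines mark -0.2 and 0.2. All points lie between -0.08 and 0.09, and the range of the tumours overlaps that of the non-tumour livers in every gene.

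None of the 8 genes passed the limma test that set 6 tumours against 2 non-tumour livers. The largest difference was that of Wwox, at -0.01 on average in tumours and 0.03 in non-tumour livers, a difference of -0.04 ± 0.04 (SE; limma adjusted p = 0.9995). Fhit differed by 0.00 ± 0.04 (limma adjusted p = 0.9995) and Ptprg by -0.02 ± 0.04 (limma adjusted p = 0.9995). At an adjusted p under 0.05, limma called 0 of 8 genes here and 0 of 3507 genes in all (0%), while 74 of all genes and none of the 8 had an unadjusted p under 0.05. Per probe, limma called 0 of 1214 probes of the genes and 0 of 225482 in all (0%), with unadjusted p under 0.05 for 20 (1.65%) and 5617 (2.49%). The p-values measure the spread between these samples, and the small number of arrays limits what they can call.

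A loss inside a gene can take fewer probes than the median shows, so windows of 10 consecutive probes were set against the flanks. A window counted as lost at or below -0.3 and at least 4 SE below the flanks at the noise of the array, a limit of -0.41, -0.37, -0.51, -0.77, -0.35 and -0.57 in tumours 1 to 6, -0.51 in the FEAT control and -0.35 in the wild-type liver. Those limits correspond to a one-copy loss in 43.1% of cells in tumour 5 and in 82.8% in tumour 4. None of the 1158 windows in the genes passed on any array. In genes of at least 50 probes, 0.0708% of pairs of gene and array held a lost window.

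Elsewhere on the array the same rule called 2 windows as lost in large genes. Smyd3, a histone methyltransferase gene on chromosome 1, had a window of -0.74 in tumour 3 against -0.02, 0.05, -0.03, -0.07 and -0.09 in the other tumours, past the limit of -0.51 for that array. Caln1, a calcium-binding protein gene on chromosome 5, had one of -0.60 in tumour 6, against -0.14 to -0.27 in the other tumours, -0.30 in the FEAT control and -0.15 in the wild-type liver. For whole genes, Loxl2, a lysyl oxidase gene on chromosome 14 with 11 probes, stood at -0.95 to -0.80 relative to its flanks in the 6 tumours, -0.88 in the FEAT control and -0.02 in the wild-type liver.

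**Figure D3:**
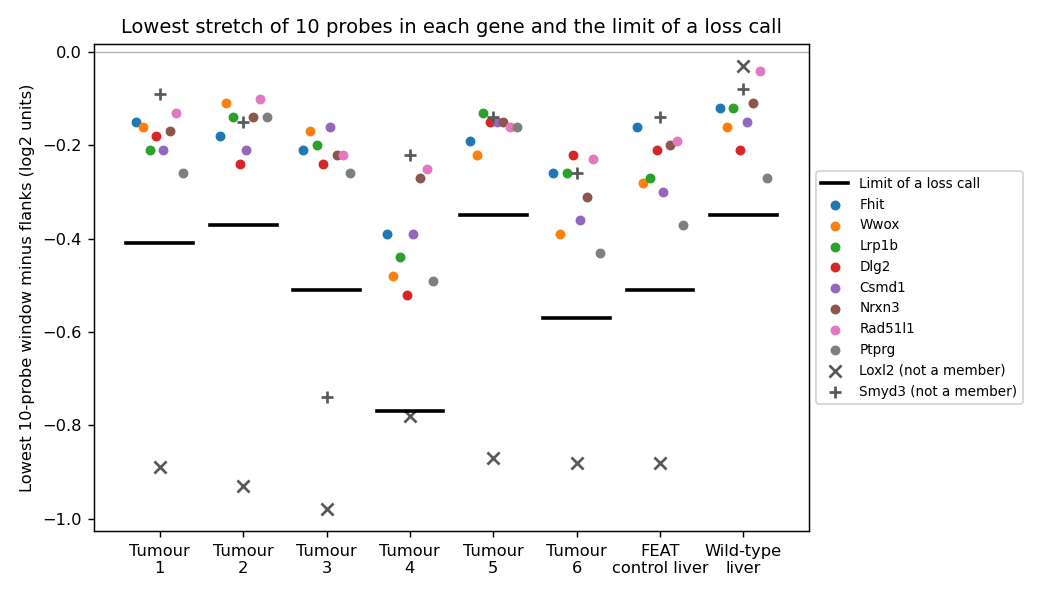
Lowest window of 10 probes minus the flanks in log2 units (vertical) for each of 8 genes on each of 8 arrays (horizontal), with the limit of a loss call as a black bar; crosses are Loxl2 and Smyd3, which are not among the 8. All 64 points lie above the bars, the lowest being Dlg2 at -0.52 in tumour 4 against a limit of -0.77, while Loxl2 falls below the bar on all 7 FEAT arrays and Smyd3 in tumour 3.

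The lowest tumour window of Ptprg is shown with its sequences because its mean over the tumours, -0.29, was the lowest among the lowest tumour windows of the 8 genes. In 4 of the 8 genes, Ptprg, Wwox, Dlg2 and Nrxn3, the lowest tumour window was below the wild-type value on all 7 FEAT arrays. Each window was picked for a low tumour value, and the share among other large genes was not counted, so no weight rests on this count. The Ptprg window lay at chr14:9793264-9849579, 420 kb from the first probe of the gene. Its values were -0.26, -0.13, -0.26, -0.49, -0.16 and -0.43 in tumours 1 to 6, -0.37 in the FEAT control and 0.00 in the wild-type liver. Every FEAT array was below the wild-type array there, the FEAT control lay within the range of the tumours, and no array reached its limit. The wild-type array had a low Ptprg window of its own elsewhere, at -0.27, about as low as the lowest of tumours 1 and 3 (-0.26). Its 10 probes were not all low: 7 to 9 of them lay below the flanks in each tumour, 8 in the FEAT control and 5 in the wild-type liver. The 3 probes with the lowest tumour means, with G and C in capitals, read as follows as spelled on the array, with the strand relative to the gene not stated there.
Ptprg probe at 9793264: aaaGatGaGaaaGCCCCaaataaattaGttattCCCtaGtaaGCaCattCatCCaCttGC
Ptprg probe at 9799585: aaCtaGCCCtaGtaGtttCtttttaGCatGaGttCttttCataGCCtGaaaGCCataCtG
Ptprg probe at 9803811: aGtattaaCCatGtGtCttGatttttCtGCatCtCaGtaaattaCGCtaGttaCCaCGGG

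The first of these probes read -0.57, -0.36, -0.44, -0.78, -0.24 and -0.71 in tumours 1 to 6, -0.62 in the FEAT control and -0.15 in the wild-type liver. All 3 have a GC content of 36.7 to 38.3%, near the autosomal mean. Correcting each array for GC content averaged over 500 kb left the window at -0.47 in tumour 4 and -0.36 in the FEAT control. That span is far wider than the 56.3 kb window, so the correction cannot decide whether the probes' own GC content mattered. Over 120 blocks of 10 successive probes in the genes studied, block values and GC content had a negative Pearson r on every array. It ran from -0.29 in tumour 5 to -0.09 in tumour 6, with -0.11 in the FEAT control and in the wild-type liver.

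A window of Wwox was raised in tumour 3 and was the only one in the 8 genes past the limit for gains, 1 of 64 pairs (1.56%) against 0.814% of pairs of large genes. The 8 genes are all autosomal, whereas most of the raised pairs of large genes lay on chromosomes X and Y, with Usp9y on chromosome Y among them. The share for autosomal large genes alone was not computed, so the shares for large genes given here are not like for like. It lay at chr8:113548061-113618491, 491 kb from the first probe. Its values were 0.16, 0.08, 0.54, 0.38, 0.10 and 0.13 in tumours 1 to 6, 0.17 in the FEAT control and 0.05 in the wild-type liver. Tumour 3 was highest, just past its limit of 0.51, and tumour 4, the noisiest array, came next. All 8 values were above 0. The probes of the window were not all raised: 3 of 10 lay below the flanks in tumour 3, and 3 or 4 on every other array. Windows of 20 probes passed in tumour 3 along a stretch of 36 probes (chr8:113431060-113685649). The highest window of that stretch was at 0.41, against 0.04 to 0.25 in the other tumours. It was the only pair raised at that length, 1.56% of pairs against 0.283% for large genes. Windows of 5 probes did not pass in Wwox, where the highest in tumour 3 was 0.62 against a limit of 0.72. They passed in Nrxn3 in tumour 5 instead, at 0.54 (chr12:86426796-86460056), 1.56% of pairs against 1.7% for large genes. The 3 probes with the highest tumour means are printed in the same manner.
Wwox probe at 113574497: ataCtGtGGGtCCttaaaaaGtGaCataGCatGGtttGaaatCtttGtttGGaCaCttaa
Wwox probe at 113588239: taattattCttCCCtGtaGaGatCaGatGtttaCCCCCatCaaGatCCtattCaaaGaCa
Wwox probe at 113603088: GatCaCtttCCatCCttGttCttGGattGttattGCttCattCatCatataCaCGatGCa

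The last probe was raised without the tumours too, at 0.82 in the wild-type liver and 1.34 in tumour 3. The probe at 113588239 read 0.25, 0.05, 0.65, 0.62, 0.11 and 0.70 in tumours 1 to 6. There the FEAT control was at 0.47 and the wild-type liver at -0.04. The probe at 113574497 read 0.29, 0.05, 0.61, 0.48, 0.47 and 0.16 in tumours 1 to 6. Here the FEAT control was at -0.02 and the wild-type liver at -0.03.

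In the other genes the lowest window of a tumour also fell short of the limit. In Fhit it was -0.39 in tumour 4 (chr14:8546774-8613707), where the remaining tumours lay between -0.16 and 0.02, while the FEAT control was at -0.13 and the wild-type liver at 0.02. In Wwox it was -0.48 in tumour 4, with -0.20 in the FEAT control and 0.03 in the wild-type liver. Most of these extremes came from tumour 4. Lrp1b reached -0.44, Dlg2 -0.52, Csmd1 -0.39 and Rad51l1 -0.25, all in tumour 4, and Nrxn3 reached -0.31 in tumour 6. The SD of windows within the 8 genes was 0.19 in tumour 4 and 0.08 to 0.13 on the other arrays, against 0.19 and 0.08 to 0.14 for large genes in general.

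**Figure D4:**
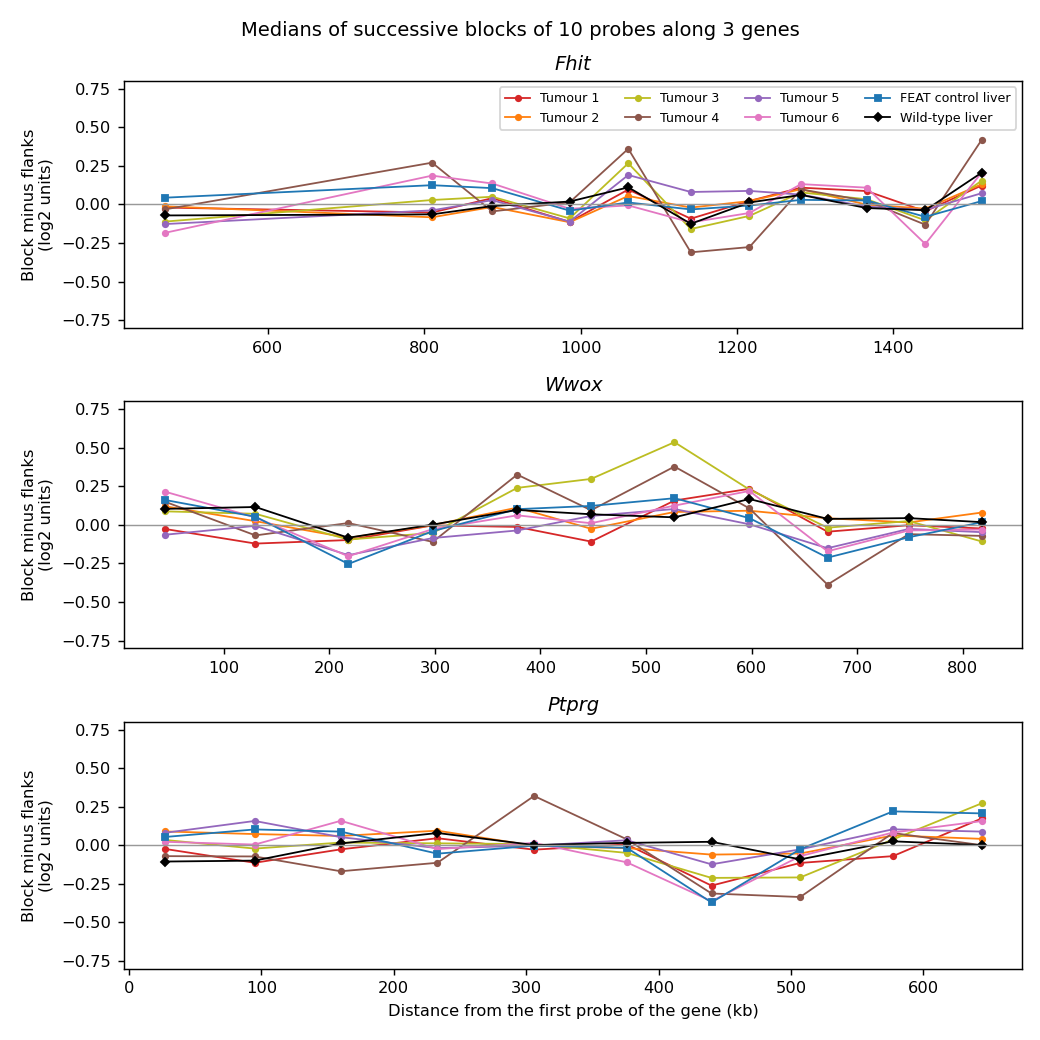
Medians of successive blocks of 10 probes minus the flanks in log2 units (vertical) along Fhit, Wwox and Ptprg, plotted at their distance in kb from the first probe of the gene (horizontal), with 1 line for each of 8 arrays. Near 440 kb along Ptprg the FEAT lines lie below the wild-type line, which is near 0, and the rise of Wwox in tumour 3 peaks at 0.54.

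Blocks with the same sign on all 7 FEAT arrays were counted in the 8 genes and in large genes generally. Of 120 blocks of 10 probes in the 8 genes, 11 were below 0 in all 7 FEAT arrays, and 8 of these were below 0 in the wild-type liver as well; that is 9.17% of blocks, against 13.5% in large genes. A further 20 were above 0 in all 7 FEAT arrays, 18 of them in the wild-type liver too; that is 16.7%, against 12.6%. Every array shares the same kind of reference DNA, so these counts are given as a description.

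Breaks were then sought by dividing each chromosome into segments of even level. No called segment, at or beyond 0.2, ended inside any of the 8 genes on any array, while 1.20% of pairs of large genes and arrays held such an end. Fhit and Ptprg in tumour 1 lay in a lost segment of 16.5 Mb at -0.20, Nrxn3 and Rad51l1 in tumour 1 in one of 19.2 Mb at -0.23, and Dlg2 in tumour 5 in one of 61.9 Mb at -0.25. These 5 pairs (7.81% of 64) were the only called ones, all losses, where 2.44% of pairs of large genes and arrays lay in lost segments and 4.04% in gained ones. They come from 3 segments, and the nearest end of a called segment was 2.25 Mb from the gene. A one-copy loss of those segments in 26.1, 28.9 and 32.3% of cells would give such ratios without compression. The calls at -0.20 rest on a value at the limit: at a limit of 0.3 none of the 5 was called.

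Single probes gave little either. No probe of the genes lay at or below -0.5 against its flanks in all 7 FEAT arrays while above -0.3 in the wild-type liver, against 0.0258% of all probes. At -0.3 there were 5 of 1230 (0.407%), 1 each in Fhit, Wwox, Csmd1, Nrxn3 and Ptprg, against 0.855% of all probes. The Nrxn3 probe (chr12:86681000-86681059) read -0.34 to -0.90 in the tumours, -0.75 in the FEAT control and -0.08 in the wild-type liver. At or below -1 in at least 1 tumour there were also 5 probes (0.407%), against 1.15% of all probes: 2 in Ptprg, with -1.71 in tumour 6 as the lowest, and 1 each in Fhit (-1.52, tumour 6), Csmd1 (-1.06, tumour 5) and Nrxn3 (-1.02, tumour 4).

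A further 20 genes known from human common fragile sites were looked up by name, and 13 were found. Of their 104 pairs of gene and array, 1 lay at or below -0.2, Ptprd in tumour 4 at -0.24 ± 0.09 (SE), and none at or above 0.2. That is 0.962% of pairs, against 0.248% for genes of at least 50 probes and 2.40% for genes of at least 10; the median was 0.003. Windows were scanned only in the 11 of these genes with at least 50 probes, and none of those held a lost window. Dmd, the dystrophin gene on chromosome X, held a raised one of 0.79 in tumour 4. Among pairs of large genes and arrays, 0.814% held a raised window.

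Among 352 other genes with at least 50 probes, the one whose medians over the 8 arrays were most like those of Fhit was Gpc5, on the same chromosome, with Pearson r = 0.992. Ptprg was most like Grid1 (r = 0.965), Dlg2 like Gabrg3 (r = 0.969), Nrxn3 like DQ233645 (r = 0.975) and Lrp1b like AK134694 (r = 0.897), each on its own chromosome. Rad51l1 was most like Ftl2 on chromosome 4 (r = 0.987), Csmd1 like AK134078 on chromosome 5 (r = 0.950) and Wwox like AK139494 on chromosome 6 (r = 0.772). These r values are descriptions over 8 arrays that share a reference, and in several pairs 1 low array weighs heavily. Gpc5 was at -0.30 in tumour 1 and -0.02 to 0.08 on the other arrays. Ftl2 was at -0.33 in tumour 1 and Gabrg3 at -0.29 in tumour 5, the arrays where Rad51l1 and Dlg2 were lowest. The r without such an array was not computed.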

How the data were processed

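The deposited value table gave log2 ratios, made by the authors with Agilent Feature Extraction, per the labels. Set against the wild-type scanner file, its wild-type column equalled the log10 ratio of that file with the sign turned, in base 2 and plus a constant of 0.0014, so values are test (Cy3) over reference (Cy5). The deposited scanner file also gave log10 ratios, dye intensities and outlier flags, per the file headers (Feature Extraction 9.1.3.1). The 235406 rows were matched to spots by number; spots of 1 probe were averaged and the autosomal median was subtracted per array. Coordinates are those of the array's annotation, whose genome build was not stated in any label or header read here.

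The flanks were 200 probes on each side. Segments came from penalised least squares (penalty factor 2, at least 5 probes, clipping at 3 SD of noise around a running median of 5 probes). Differences were tested with limma 3.58.1 (R 4.3.3) and p-values adjusted by Benjamini-Hochberg over all genes or probes and both non-tumour arrays pooled as controls; other steps used Python 3.11.15 and numpy 2.4.6. The scripts were tested on simulated data. The genes named are the 8 genes, genes of the further list of 20 with a lost window in a tumour (none), and for each of the 8 the gene with the most similar medians; Ptprd, Dmd, Loxl2, Smyd3 and Caln1 were chosen after their values were seen. The members and lists were chosen with earlier results of these data known. Alternatives covered flank width, summary, limits, window length, penalty, GC content, flagged spots, background correction (normexp) and each array left out. A further gene is not reported here. Scanner files and slides of the other arrays were not analysed here.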

Additional observations from a re-analysis of the deposited data

Results flagged for a closer look

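In 32 sets of 6 tumour values (levels, differences and extreme windows of the 8 genes), 4 held a tumour far from the others. For values not picked by size, chance gives about 1 such set in 20; the windows were picked because 1 tumour was extreme there, so that rate does not hold for them. The level of Fhit was -0.21 in tumour 1 against a median of 0.01 over the tumours, and that of Ptprg was -0.24 in tumour 1 against 0.01. Both genes lie in the lost segment of chromosome 14 in that tumour. The lowest window of Dlg2 was -0.52 in tumour 4 against a median of -0.16, and its highest was 0.25 in tumour 3 against 0.06. Tumour 4 had the largest noise of the 8 arrays, with an SD of 0.49 between neighbouring probes; its part in these values was not tested.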

How the results depend on the processing

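No pair of gene and array passed 0.1 or 0.3, nor 0.2 under the other flank widths, means, GC correction, choices of probes or normexp values tried; with the 95% interval wholly past 0 as the rule, added after seeing the data, 1 was low and 4 were high. At 3 SE, 1 pair held a lost window (Ptprg in tumour 6) and 7 a raised one, 1.56% and 10.9% of 64 pairs. For large genes, those on chromosomes X and Y included, the shares were 1.42% and 4.89%. At 5 SE 0 pairs of the 8 genes held a raised one. The raised Wwox window thus depends on the limit, and on the window length, since windows of 5 probes did not call it. A penalty factor of 1 gave 3 segment ends inside the genes, all of raised segments: Wwox in tumour 3 (40 probes, 0.30), Lrp1b in tumour 4 (5 probes, 1.16) and Nrxn3 in tumour 5 (6 probes, 0.30). It left 3 pairs in lost segments (Nrxn3 and Rad51l1 in tumour 1, Dlg2 in tumour 5) and put 1 in a gained one (Wwox in tumour 3). A limit of 0.1 put 2 pairs in gained segments (Lrp1b in tumours 4 and 5) and 7 in lost ones, adding Nrxn3 and Rad51l1 in tumour 5 at -0.10, and a limit of 0.3 put 0 in lost ones. At -0.3, 5 probes of the genes were low in all FEAT arrays. Leaving out 1 array at a time, limma called 0 to 1 of all genes (Loxl2, -0.85 ± 0.06, limma adjusted p = 0.000223, without the FEAT control) and 0 to 240 of all probes, with 0 to 1 among the genes' probes. The 240 came without the wild-type liver, and the 1 was a Dlg2 probe (chr7:87966553-87966612) at 1.30 in the FEAT control, -0.39 to 0.03 in the tumours and -0.04 in the wild-type liver (limma adjusted p = 0.0229); the control was then 1 array, assumed to vary like the tumours. Of 112 alternative tumour minus non-tumour differences of the 8 genes, none passed the threshold, 93 kept the sign and 19 turned it. With 100 flank probes Fhit was 0.0016, Csmd1 -0.01 and Nrxn3 0.01; with 500, Fhit 0.0009, Csmd1 -0.0038 and Nrxn3 0.0001. With means, Fhit was 0.02, Wwox 0.0029, Lrp1b 0.0010 and Csmd1 -0.0018; with GC correction, Fhit 0.01 and Nrxn3 0.01. With 1 array left out, Fhit ran from -0.01 to 0.01, Lrp1b from -0.02 to 0.0037, Csmd1 from -0.01 to 0.02 and Nrxn3 from -0.02 to 0.01. The cause was not tested. No paired analysis was possible: the non-tumour livers came from animals of 13 and 6 months, and no tumour came from an animal of either age.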
